A study of Mus musculus with 13 samples.

Results

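The genes described here are the Hox genes and 6 transcription factors that mark regions of the gut, measured in the colon and ileum of mice with and without vancomycin. They were taken from a list of 44 symbols, 38 Hox genes and Cdx1, Cdx2, Gata4, Gata6, Hnf4a and Hnf4g. Of these, 39 had a named probe set on the array, 33 Hox genes and all 6 other factors, among 19505 named genes in all. Hoxa7, Hoxa9, Hoxb4, Hoxd3 and Hoxd4 had none under their symbol, and no expression value of theirs is used here. Every member with a probe set had exactly 1, so no choice between probe sets was needed.

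The animals, all FVB females, bore a mammary carcinoma with human HER2, a growth factor receptor, so no group was free of a tumour. Treated mice received vancomycin, which acts on Gram-positive bacteria, in their water (200 mg/L), beginning when they were 4 weeks old. Tissue was taken at 9 weeks, when tumours measured 150 mm3, and the labels do not say which stretch of the colon or ileum was used. There were 4 arrays of colon without antibiotic (numbers 1, 2, 3 and 5), 3 of colon with vancomycin (11, 13 and 14), 3 of ileum without antibiotic (1, 2 and 3) and 3 of ileum with vancomycin (11, 13 and 14). Values below are given in that order, on the log2 scale of the deposited table, on which 1 unit stands nominally for a doubling. The groups without antibiotic are called untreated. The labels do not say whether arrays came from separate mice, so p-values measure the spread between these arrays, which may be technical.

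Hox genes encode homeodomain transcription factors and lie in the clusters A to D. Genes at the low-numbered end of a cluster act towards the head, and those at the high-numbered end act towards the tail, an order called colinearity. In the gut they are expressed mainly in the mesenchyme, while Hoxb13 and a few others are also expressed in the epithelium of the hindgut. Cdx1 and Cdx2, caudal-type homeodomain factors, act upstream of Hox genes and give the epithelium its intestinal identity. Gata4 and Gata6 are zinc finger factors, of which Gata4 marks the proximal small intestine. Hnf4a and Hnf4g are nuclear receptors that drive enterocyte genes.

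To show the DNA at the start of some of these genes, the 250 bases before the annotated gene start are printed for Hoxa5 and Hoxa6, 2 neighbours higher in the colon, and for Hoxd13 and Cdx2, which varied widely among colon arrays and in opposite directions. They are RefSeq sequences of GRCm38.p6, written 5′ to 3′ along the gene, with CpG dinucleotides in capitals. Hoxa5 lies at chr6:52204588-52204837 and Hoxa6 at chr6:52208673-52208922, both on the minus strand. The Hoxd13 stretch is chr2:74667975-74668224 on the plus strand and the Cdx2 stretch chr5:147307250-147307499 on the minus strand.
Hoxa5: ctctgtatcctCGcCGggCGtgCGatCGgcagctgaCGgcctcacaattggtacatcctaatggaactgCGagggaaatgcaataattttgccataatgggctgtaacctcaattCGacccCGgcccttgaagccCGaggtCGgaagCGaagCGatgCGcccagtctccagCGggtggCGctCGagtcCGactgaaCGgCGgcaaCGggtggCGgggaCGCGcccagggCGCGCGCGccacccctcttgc
Hoxa6: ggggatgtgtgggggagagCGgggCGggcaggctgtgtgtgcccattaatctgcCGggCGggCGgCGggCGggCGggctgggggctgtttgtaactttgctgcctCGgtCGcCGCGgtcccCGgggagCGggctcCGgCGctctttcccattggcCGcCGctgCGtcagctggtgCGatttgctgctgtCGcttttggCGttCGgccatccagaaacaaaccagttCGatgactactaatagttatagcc
Hoxd13: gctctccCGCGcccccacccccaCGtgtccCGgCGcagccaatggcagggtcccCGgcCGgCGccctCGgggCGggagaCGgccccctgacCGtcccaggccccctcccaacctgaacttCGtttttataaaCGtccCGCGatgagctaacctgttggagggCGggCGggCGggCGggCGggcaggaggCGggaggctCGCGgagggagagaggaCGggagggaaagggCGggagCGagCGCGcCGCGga
Cdx2: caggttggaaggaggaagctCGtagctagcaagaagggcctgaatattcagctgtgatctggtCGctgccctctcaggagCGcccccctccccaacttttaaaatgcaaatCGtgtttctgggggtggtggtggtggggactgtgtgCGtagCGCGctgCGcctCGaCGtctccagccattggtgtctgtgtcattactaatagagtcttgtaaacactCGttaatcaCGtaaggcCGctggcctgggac
These stretches held 28, 24, 31 and 13 CpG dinucleotides, respectively, where the median of all 32851 promoters in the table was 6. Cdx1 and Gata6 were left out of the counts that follow. For the other listed genes the counts covered 27 such stretches of 24 genes, among them the 5 without a probe set. These had a median of 12 CpG dinucleotides and a range of 2 to 35. The letters TTTATG, a core of CDX binding sites, occurred on either strand in 5 of the 27 (Hoxa7, Hoxb8, Hoxd3, Hoxd4 and Hoxd11) and in 10.8% of all promoters. TATAAA, the letters of a TATA box, was found in 4 of the 27, among them Hoxd13, and in 12.4% of all promoters. AGATAA, which GATA factors bind, was in 1 of the 27, a start of Hnf4a, and in 9.99% of all promoters. CAAAGT, which HNF4 receptors bind, was in 6 of the 27 and in 12.6% of all promoters. A match describes the letters only.

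Markers chosen for the tissues matched the labels. All 8 colon markers, such as Car1 and Aqp8, were higher in untreated colon, and all 10 ileum markers, such as Fabp6 and Sis, were lower. Under vancomycin 7 of the 8 and 9 of the 10 passed. The tissues also differed in other cell types. Of 10 smooth muscle markers 8 were higher in untreated colon (median difference 1.30), as were 6 of 9 fibroblast and matrix markers (median 0.82). Under vancomycin 1 of 10 and 1 of 9 were higher in colon (medians 0.65 and 0.04), counts near the share of all probe sets. Of 8 neuronal and glial markers 3 were higher in untreated colon (median 0.51) and 0 under vancomycin (median 0.18). Adipocyte markers of adjoining fat were lower in colon, 6 of 7 without antibiotic (median -2.25) and 7 of 7 with it (median -2.68). Of 10 epithelial markers 4 were lower and 0 higher in untreated colon (median -0.28), and 2 and 0 under vancomycin (median -0.34). Ileum array 11 stood apart, with a mean correlation to its group of 0.977 and a mean smooth muscle level of 14.64, where the other ilea had 12.97 to 13.64. Its B cell markers averaged 10.25 (7.36 to 8.13 in the others), endothelial markers 8.65 (7.32 to 7.66) and neuronal and glial markers 8.01 (6.97 to 7.11). The part of these cell types in the differences of the members was not tested. In bulk tissue, fewer cells of a type and less RNA per cell cannot be told apart.

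The first comparison asked how the members differed between colon and ileum without antibiotic. The colon had higher levels of 7 Hox A genes, Hoxb13, Hoxd10 and Hoxd11, and the ileum had higher Hoxb3, Hoxb5, Hoxb6, Hoxc6 and Hoxc8 and higher Hnf4a, Hnf4g and Gata4. In limma 21 of the 39 members passed an adjusted p of 0.05, 12 higher and 9 lower in colon, where 20.5% of all 19572 probe sets passed (11% higher and 9.59% lower). The groups did not overlap for 24 of the 39, against 32.2% of all probe sets. The median size of the difference was 0.89 among the members and 0.23 among all probe sets. Of the 15 posterior Hox genes (paralog numbers 9 to 13) 7 were higher and 0 lower. Of the 12 central ones (numbers 4 to 8) 2 were higher and 5 lower, and of the 6 anterior ones (numbers 1 to 3) 2 were higher and 1 lower. The plot of differences by cluster shows each gene. Across the 33 Hox genes the difference and the paralog number had a Pearson r of 0.256, given as a description since neighbours in a cluster are not independent.

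**Figure D1:**
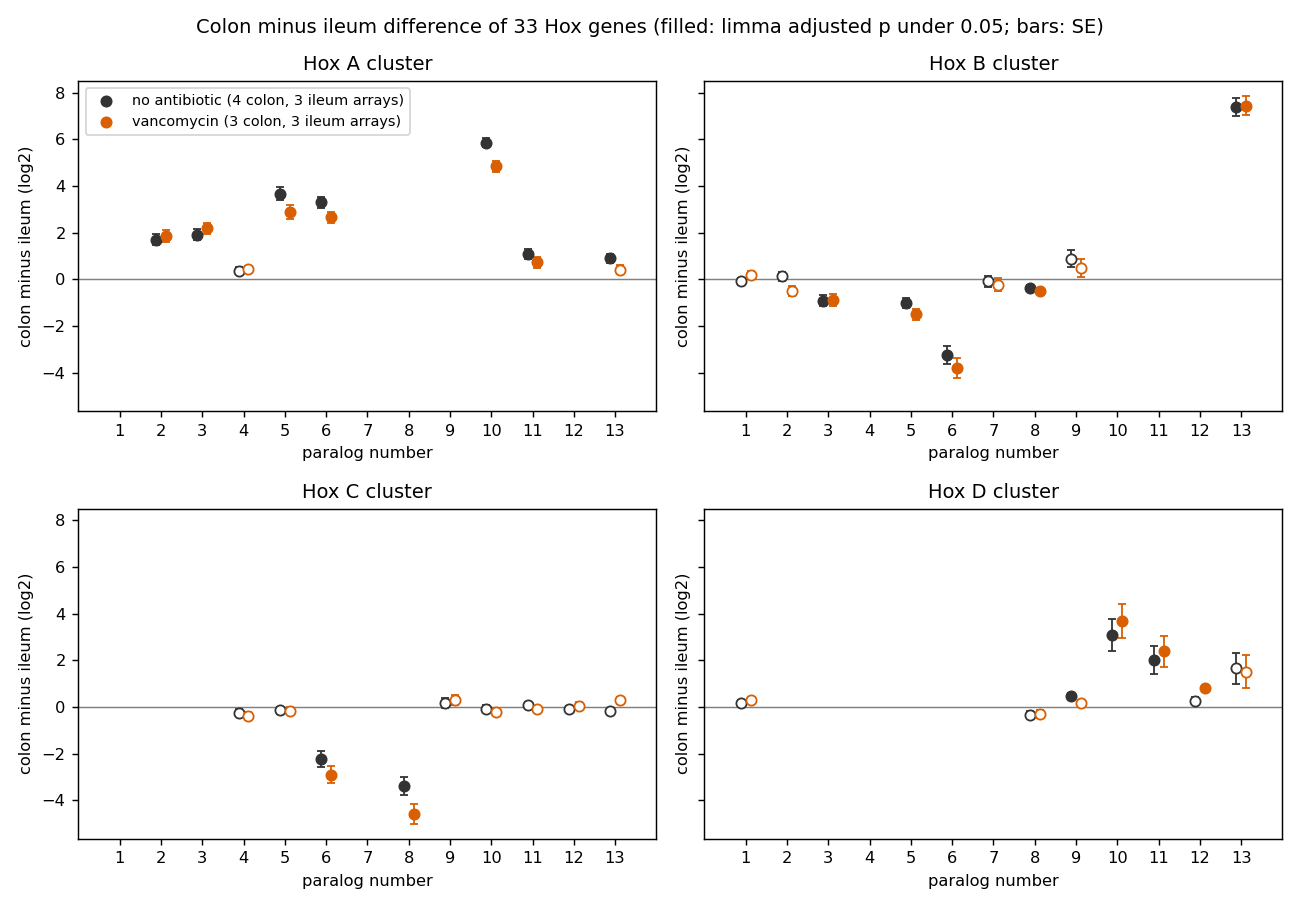
Colon minus ileum difference (log2) against paralog number for the Hox A, B, C and D clusters, without antibiotic (black) and with vancomycin (orange); bars are SE and filled points had a limma adjusted p under 0.05. Hox A genes lay above 0, central Hox B and Hox C genes below it, and the largest difference was that of Hoxb13, at 7.40 and 7.45.

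In the Hox A cluster the differences ran one way. All 8 measured genes had higher means in colon, and 7 passed (median 1.81), where 20.5% of all probe sets passed. Under vancomycin 6 of the 8 passed (median 2.02), where 15.1% of all probe sets passed. Hoxa10, a gene of the posterior trunk and reproductive tract, stood at 12.97, 12.35, 12.65 and 13.05 in the untreated colons and 6.90, 6.98 and 6.80 in the untreated ilea, and differed by 5.86 ± 0.21 (SE, 4 against 3 arrays; adjusted p = 1.4e-10). Under vancomycin it stood at 12.58, 11.86 and 11.81 in colon and 7.28, 7.44 and 7.02 in ileum, a difference of 4.84 ± 0.22. The colon and ileum ranges were far apart in both treatments. Hoxa5, which patterns lung and gut mesenchyme, stood at 10.29, 10.14, 9.88 and 9.97 in the untreated colons and 6.80, 6.13 and 6.29 in the untreated ilea. Its colon arrays lay within a narrow band well above every ileum array, with a difference of 3.66 ± 0.27. With vancomycin the values were 10.23, 9.59 and 9.85 in colon and 7.78, 6.51 and 6.69 in ileum, and array 11 was the highest ileum. Hoxa6, its neighbour, stood at 9.57, 9.19, 8.44 and 8.89 in the untreated colons and 5.48, 5.74 and 5.96 in the untreated ilea, with a difference of 3.30 ± 0.24. Under vancomycin Hoxa6 stood at 8.75, 8.45 and 9.09 in colon and 6.05, 5.98 and 6.30 in ileum. The groups were again apart, by 2.65 ± 0.25.

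The anterior Hox A genes were also higher in colon. Hoxa2, known for its role in the hindbrain and second pharyngeal arch, stood at 8.85, 9, 9.10 and 9.62 in the untreated colons and 7.65, 7.30 and 7.37 in the untreated ilea, and at 9.43, 8.81 and 9.73 in the vancomycin colons and 7.66, 7.72 and 7 in the vancomycin ilea. It differed by 1.70 ± 0.24 without antibiotic and by 1.86 ± 0.26 with it. Hoxa3, which patterns pharyngeal organs, stood at 9.58, 9.60, 9.66 and 9.59 in the untreated colons and 7.56, 8.16 and 7.35 in the untreated ilea, and at 10.52, 9.85 and 10.28 in the vancomycin colons and 8.5, 7.94 and 7.65 in the vancomycin ilea. Its differences were 1.92 ± 0.23 and 2.19 ± 0.24, with no overlap in either treatment. Hoxa4 lay between 9.40 and 9.94 in all colons and between 9.15 and 9.41 in all ilea. Its difference of 0.37 ± 0.14 did not pass (adjusted p = 0.0967).

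The genes beyond Hoxa10 had smaller differences. Hoxa11, a partner of Hoxa10 in limb and uterus, stood at 7.38, 6.99, 7.42 and 7.89 in the untreated colons and 6.19, 6.39 and 6.45 in the untreated ilea, and differed by 1.08 ± 0.21. Under vancomycin it stood at 7.54, 6.70 and 7.01 in colon and 6.34, 6.39 and 6.34 in ileum and differed by 0.73 ± 0.23 (adjusted p = 0.0441), a call that was lost when any vancomycin array other than colon 13 was left out (adjusted p up to 0.174). Hoxa13, needed for the hindgut and genital tubercle, stood at 7.83, 7.96, 7.57 and 8.11 in the untreated colons and 6.75, 6.94 and 7.22 in the untreated ilea. It was higher by 0.90 ± 0.18 without antibiotic. With vancomycin, at 7.94, 7.35 and 7.75 in colon and 7.39, 7.38 and 7.05 in ileum, the groups overlapped and the difference of 0.41 ± 0.19 did not pass (adjusted p = 0.198). An antisense transcript of the same locus, Hoxa11os, stood at 12.35, 12.01, 12.12 and 12.43 in the untreated colons and 5.51, 5.72 and 5.26 in the untreated ilea. It differed by 6.73 ± 0.17, and by 7.27 ± 0.19 under vancomycin. The labels do not say whether the probe sets tell the strands apart.

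**Figure D2:**
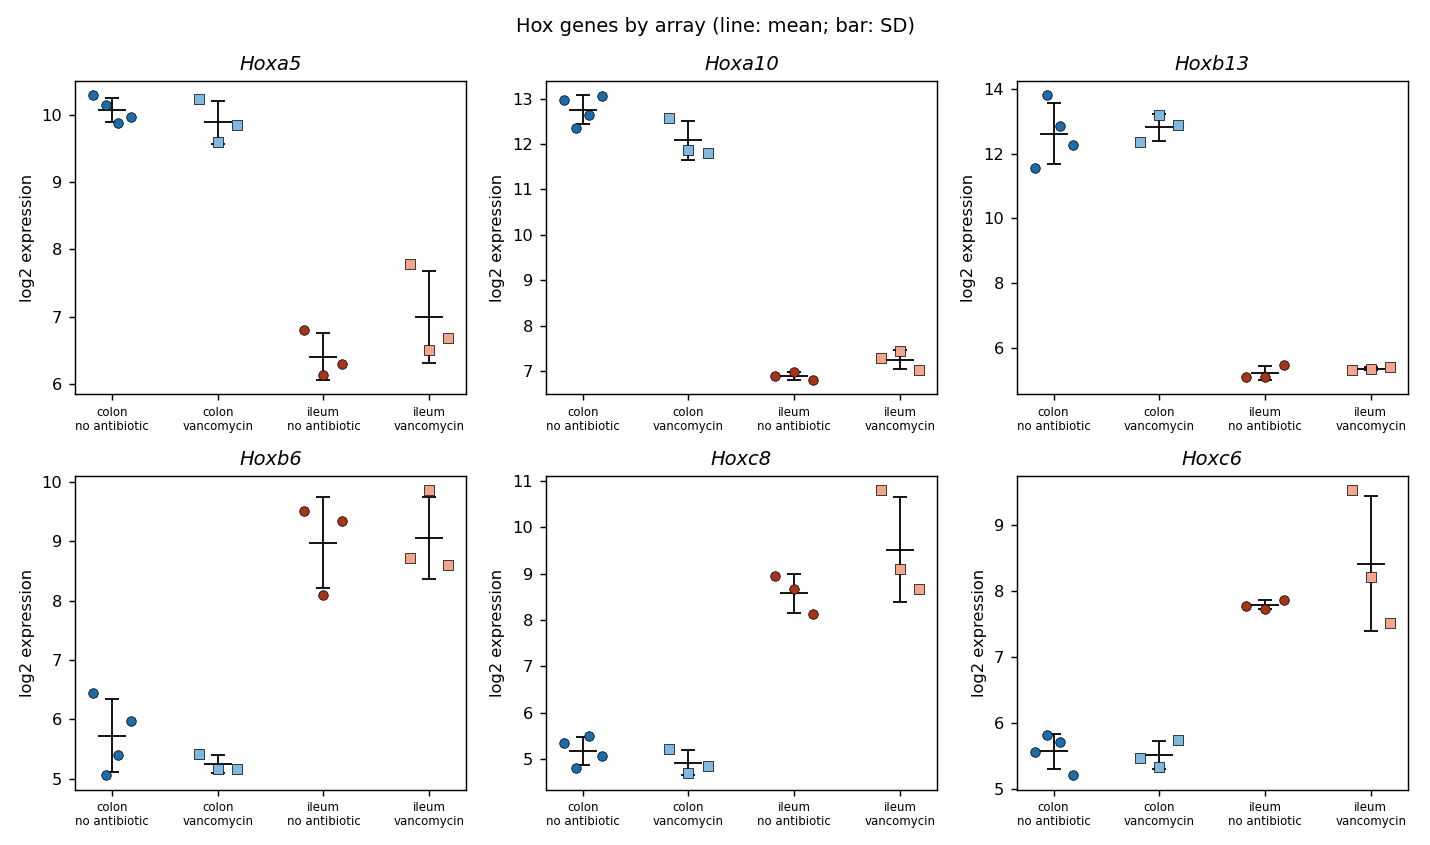
Log2 expression of Hoxa5, Hoxa10, Hoxb13, Hoxb6, Hoxc8 and Hoxc6 in every array, by tissue and treatment; lines are group means and bars SD. Colon and ileum arrays of these 6 genes did not overlap, and ileum array 11 was the highest ileum for Hoxc6 (9.53) and Hoxc8 (10.79).

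The Hox B cluster split between its end and its middle. Hoxb13, the most posterior Hox B gene and a marker of hindgut and prostate epithelium, stood at 11.55, 13.80, 12.84 and 12.27 in the untreated colons and 5.09, 5.10 and 5.46 in the untreated ilea. The colons were spread widely and still lay far above every ileum, with a difference of 7.40 ± 0.38 (adjusted p = 6.47e-09). Under vancomycin Hoxb13 stood at 12.35, 13.19 and 12.88 in colon and 5.31, 5.36 and 5.40 in ileum, a difference of 7.45 ± 0.41. The next gene in the cluster, Hoxb9, had a difference of 0.88 ± 0.37 that did not pass (adjusted p = 0.119), with ileum array 2 the lowest at 8.53.

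The middle of the cluster ran the other way. Hoxb6, a gene of the thoracic level, stood at 6.45, 5.06, 5.41 and 5.97 in the untreated colons and 9.50, 8.09 and 9.33 in the untreated ilea, and colon was lower by 3.25 on the log2 scale (-3.25 ± 0.39). With vancomycin it stood at 5.42, 5.16 and 5.16 in colon and 8.72, 9.85 and 8.60 in ileum, a difference of -3.81 ± 0.42. Every ileum was above every colon. Hoxb5, which acts in the enteric neural crest, stood at 7.11, 6.70, 7.24 and 6.77 in the untreated colons and 8.04, 7.62 and 8.31 in the untreated ilea, and at 7.09, 6.51 and 7.22 in the vancomycin colons and 8.44, 8.70 and 8.19 in the vancomycin ilea. Its differences were -1.03 ± 0.22 and -1.50 ± 0.23, again without overlap. Hoxb3, which acts in the hindbrain, stood at 8.40, 8.12, 7.95 and 8.25 in the untreated colons and 9.10, 8.55 and 9.67 in the untreated ilea, and at 8.60, 8.38 and 8.38 in the vancomycin colons and 9.23, 9.74 and 9.04 in the vancomycin ilea. It differed by -0.93 ± 0.23 and -0.88 ± 0.25. The first call was lost without ileum array 3 (adjusted p = 0.0704), and the second without colon 13, colon 14 or ileum 13 (adjusted p up to 0.129).

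Hoxb8 differed little in size. It stood at 5.64, 5.66, 5.71 and 5.67 in the untreated colons and 6.01, 5.98 and 6.17 in the untreated ilea, and at 5.64, 5.77 and 5.91 in the vancomycin colons and 6.16, 6.32 and 6.32 in the vancomycin ilea, with differences of -0.38 ± 0.12 and -0.49 ± 0.13. The calls were lost in 9 of 16 and 5 of 15 alternatives, among them leaving out untreated colon 1, 2 or 5, any untreated ileum, vancomycin colon 11 or vancomycin ileum 13 or 14. Hoxb1, Hoxb2 and Hoxb7 did not pass in either treatment, with differences of -0.09, 0.14 and -0.09 without antibiotic. The tissues overlapped for these 3 genes in both treatments. Hoxb1 ran from 5.72 to 6.29 over all arrays and Hoxb7 from 8.64 to 9.74.

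In the Hox C cluster 2 of 9 genes passed in each treatment, both lower in colon. Of all probe sets 20.5% passed without antibiotic and 15.1% with vancomycin. Hoxc8, a gene of the thoracic level, stood at 5.36, 4.82, 5.50 and 5.08 in the untreated colons and 8.94, 8.66 and 8.12 in the untreated ilea, a difference of -3.38 ± 0.39. With vancomycin it stood at 5.22, 4.70 and 4.85 in colon and 10.79, 9.09 and 8.67 in ileum, a difference of -4.59 ± 0.41. Hoxc6 stood at 5.55, 5.81, 5.70 and 5.20 in the untreated colons and 7.78, 7.73 and 7.87 in the untreated ilea, and differed by -2.23 ± 0.34. With vancomycin its values were 5.46, 5.32 and 5.74 in colon and 9.53, 8.21 and 7.51 in ileum, and the difference was -2.91 ± 0.36. Both genes were highest in ileum array 11. Adipocyte markers averaged 11.80 there and 10.29 to 11.68 in the other ilea, and fibroblast markers 10.58 there and 9.69 to 9.87 elsewhere. Ileum array 14, with an adipocyte list mean of 11.68, had Hoxc8 at 8.67. Adipocyte list means were 7.55 to 9.03 in colon, and the part of these cells in the difference was not tested. Without ileum array 11 and the colon arrays 2 and 13, the differences under vancomycin were -3.85 for Hoxc8 and -2.26 for Hoxc6, both past the threshold.

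The posterior Hox C genes showed no called difference. Hoxc10, Hoxc11, Hoxc12 and Hoxc13 ran from 3.64 to 4.56 over all 13 arrays, with differences between -0.17 and 0.09 without antibiotic. Hoxc4, Hoxc5 and Hoxc9 did not pass either (-0.24, -0.15 and 0.18). Their levels ran from 4.66 to 5.56, from 4.51 to 4.98 and from 6.16 to 7.14.

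In the Hox D cluster 3 of 7 genes passed without antibiotic, all higher in colon, where 20.5% of all probe sets passed. Hoxd10 and Hoxd11, posterior genes known from limb and hindgut, carried the cluster. Hoxd10 stood at 6.42, 9.75, 7.02 and 7.18 in the untreated colons and 4.56, 4.43 and 4.48 in the untreated ilea, a difference of 3.10 ± 0.68 (adjusted p = 0.00459). Under vancomycin it stood at 7.03, 9.81 and 8.29 in colon and 4.32, 5.16 and 4.61 in ileum, a difference of 3.68 ± 0.73. No ileum reached the lowest colon. Hoxd11 stood at 6.91, 9.63, 7.03 and 7.02 in the untreated colons and 5.93, 5.45 and 5.54 in the untreated ilea, a difference of 2.01 ± 0.61 (adjusted p = 0.0309), and the call was lost without any 1 of the untreated ilea (adjusted p up to 0.0982). With vancomycin it stood at 6.69, 9.07 and 7.84 in colon and 5.03, 5.59 and 5.84 in ileum, a difference of 2.38 ± 0.65, and the call was lost without colon 13, colon 14 or ileum 13 (adjusted p up to 0.108).

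Hoxd13, the most posterior Hox D gene, stood at 5.23, 8.46, 5.80 and 5.66 in the untreated colons and 4.57, 4.75 and 4.57 in the untreated ilea. The tissues did not overlap, but the difference of 1.66 ± 0.65 did not pass (adjusted p = 0.0942), nor did that of 1.52 ± 0.70 under vancomycin. Hoxd9 stood at 5.23, 5.11, 4.96 and 5.09 in the untreated colons and 4.93, 4.47 and 4.54 in the untreated ilea, with a difference of 0.45 ± 0.15 (adjusted p = 0.044). That call was lost in 10 of 16 alternatives, among them a fit of the untreated arrays alone and leaving out colon 1, 2 or 5 or ileum 2 or 3. Under vancomycin Hoxd9, at 5.40, 5.01 and 5.06 in colon and 5.03, 5.05 and 4.90 in ileum, differed by 0.16 ± 0.16 and did not pass. Hoxd12 passed with vancomycin only, which does not show that the treatments differ. It stood at 6.52, 6.90, 6.46 and 6.36 in the untreated colons and 6.49, 6.08 and 6.30 in the untreated ilea, and at 6.71, 6.70 and 6.98 in the vancomycin colons and 5.88, 6.11 and 6.02 in the vancomycin ilea, with differences of 0.27 ± 0.16 and 0.79 ± 0.17. Hoxd1, between 4.51 and 5.03 on all arrays, and Hoxd8 did not pass in either treatment (0.19 and -0.33 without antibiotic).

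Of the members, Hoxd10, Hoxd13 and Hoxd11 varied most among the colons. Within colon groups the SD was 1.44 for Hoxd10, 1.4 for Hoxd13 and 1.27 for Hoxd11, larger than for 99.8% or more of the named probe sets. Colon arrays 2 (untreated) and 13 (vancomycin) were high in all 3 genes. Hoxd10 was at 9.75 and 9.81 there, against 6.42 to 8.29 in the other colons. Hoxd13 was at 8.46 and 8.03, against 5.23 to 5.97. Hoxb13 was also highest in these arrays, at 13.80 and 13.19, against 11.55 to 12.88 in the others.

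Cdx2, the main intestinal homeodomain factor, ran the other way. It stood at 12.10, 10.22, 12.31 and 12 in the untreated colons and 12.10, 9.58 and 10.64 in the vancomycin colons, lowest in arrays 13 and 2. Vancomycin colon 14 came next in Hoxd10, Hoxd11 and Cdx2, with Hoxd10 at 8.29, Hoxd11 at 7.84 and Cdx2 at 10.64. The smooth muscle list means of arrays 2 and 13 were 13.60 and 13.71, against 14.35 to 14.74 in the other colons. Their colon marker means were 14.99 and 14.36, within the range of 14.43 to 15.13 of the other colons for array 2 and just below it for array 13. The part of smooth muscle, or of where along the colon tissue was taken, was not tested. Without arrays 2 and 13, Hoxd10 differed between the tissues by 2.38 and 2.96, Hoxd11 by 1.35 and 1.78, and Hoxd13 by 0.93 and 0.78. All of these values passed, but arrays 2 and 13 were picked for their high values of these same genes, which narrows the spread. These calls are therefore a description and not a test. With all arrays Hoxd13 did not pass without antibiotic or with vancomycin (limma adjusted p = 0.0942 and 0.181).

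**Figure D3:**
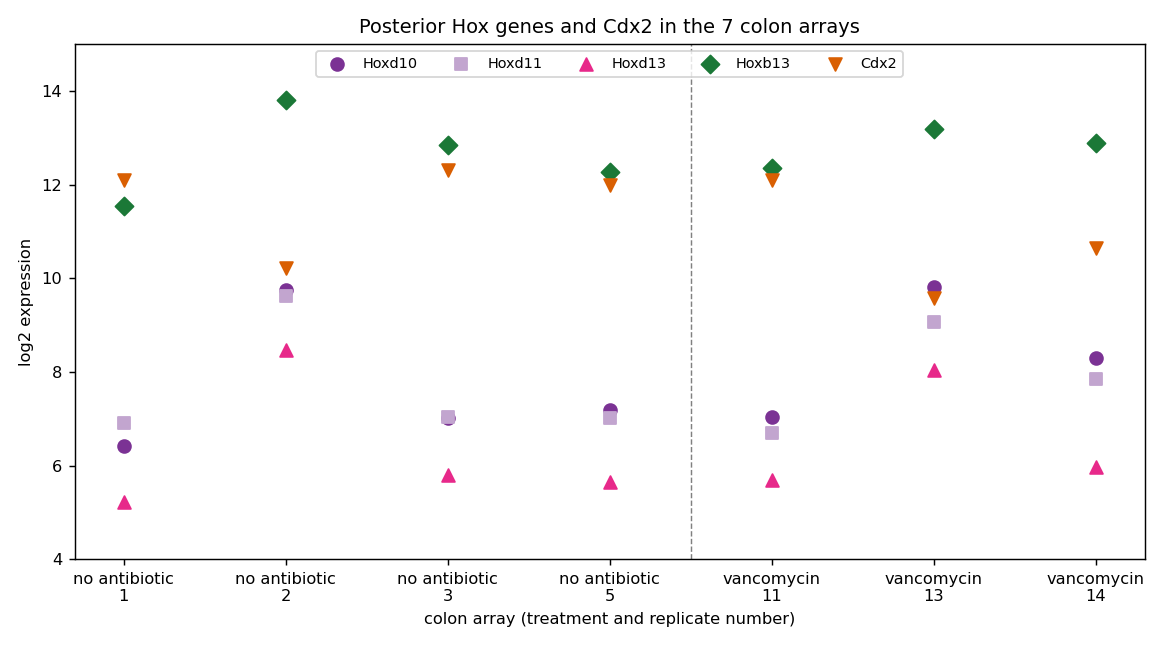
Log2 expression of Hoxd10, Hoxd11, Hoxd13, Hoxb13 and Cdx2 in the 7 colon arrays; each column is 1 array and the dashed line separates untreated from vancomycin colons. Arrays 2 and 13 had the highest values of the 4 Hox genes and the lowest of Cdx2 (10.22 and 9.58).

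Among the gut patterning factors, 1 of 6 was higher and 3 were lower in untreated colon. Of all probe sets, 11% passed as higher and 9.59% as lower. Hnf4g, a nuclear receptor of enterocytes, stood at 13.65, 13.89, 13.27 and 13.65 in the untreated colons and 15.92, 16 and 15.82 in the untreated ilea, a difference of -2.30 ± 0.17 (adjusted p = 2.1e-07). Under vancomycin it stood at 13.53, 13.61 and 13.73 in colon and 15.70, 16.12 and 16.27 in ileum and differed by -2.41 ± 0.18. Every ileum was above every colon in both treatments. Hnf4a, its paralog, stood at 14.47, 14.59, 14.31 and 14.33 in the untreated colons and 15.35, 15.46 and 15.58 in the untreated ilea, a difference of -1.04 ± 0.19. With vancomycin, at 14.26, 14.21 and 14.58 in colon and 14.22, 14.96 and 15.13 in ileum, ileum array 11 lay among the colons. The difference was then -0.42 ± 0.21 and did not pass (adjusted p = 0.213), but passed without ileum array 11 (-0.69, adjusted p = 0.0075). Leaving out the ileum nearest the colons widens the difference and narrows the spread. That call is therefore a description and not a test. Epithelial markers averaged 15.62 in array 11, 15.995 to 16.12 in the other ilea and 15.29 to 15.50 in the colons. The part of epithelial content in the Hnf4a and Hnf4g differences was not tested.

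Cdx1 was higher in colon. It stood at 13.32, 13.41, 13.40 and 13.63 in the untreated colons and 12.56, 12.45 and 12.71 in the untreated ilea, and at 13.29, 13.12 and 13 in the vancomycin colons and 12.23, 12.52 and 12.62 in the vancomycin ilea, with differences of 0.87 ± 0.14 and 0.68 ± 0.15 and no overlap. The call under vancomycin was lost without colon arrays 2 and 13 and ileum array 11 (adjusted p = 0.0529). Cdx2 stood at 12.45, 12.37 and 12.83 in the untreated ilea and 11.45, 12.52 and 11.83 in the vancomycin ilea. Its difference of -0.89 ± 0.54 did not pass (adjusted p = 0.306; 95% interval -2.06 to 0.27), although every untreated colon was below every untreated ileum. Gata4 stood at 7.35, 7.58, 7.61 and 7.14 in the untreated colons and 7.82, 9.42 and 8.07 in the untreated ilea, a difference of -1.02 ± 0.29 that rested in part on ileum array 2. Without that array it was -0.53 (adjusted p = 0.0754), and the call was also lost without colon 1 or colon 5. Under vancomycin Gata4 stood at 7.84, 7.73 and 7.81 in colon and 7.79, 8.25 and 8.22 in ileum, with a difference of -0.29 ± 0.31 that did not pass. Gata6, expressed along the whole intestine, ranged from 6.75 to 7.35 and did not pass (-0.29 and -0.18).

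**Figure D4:**
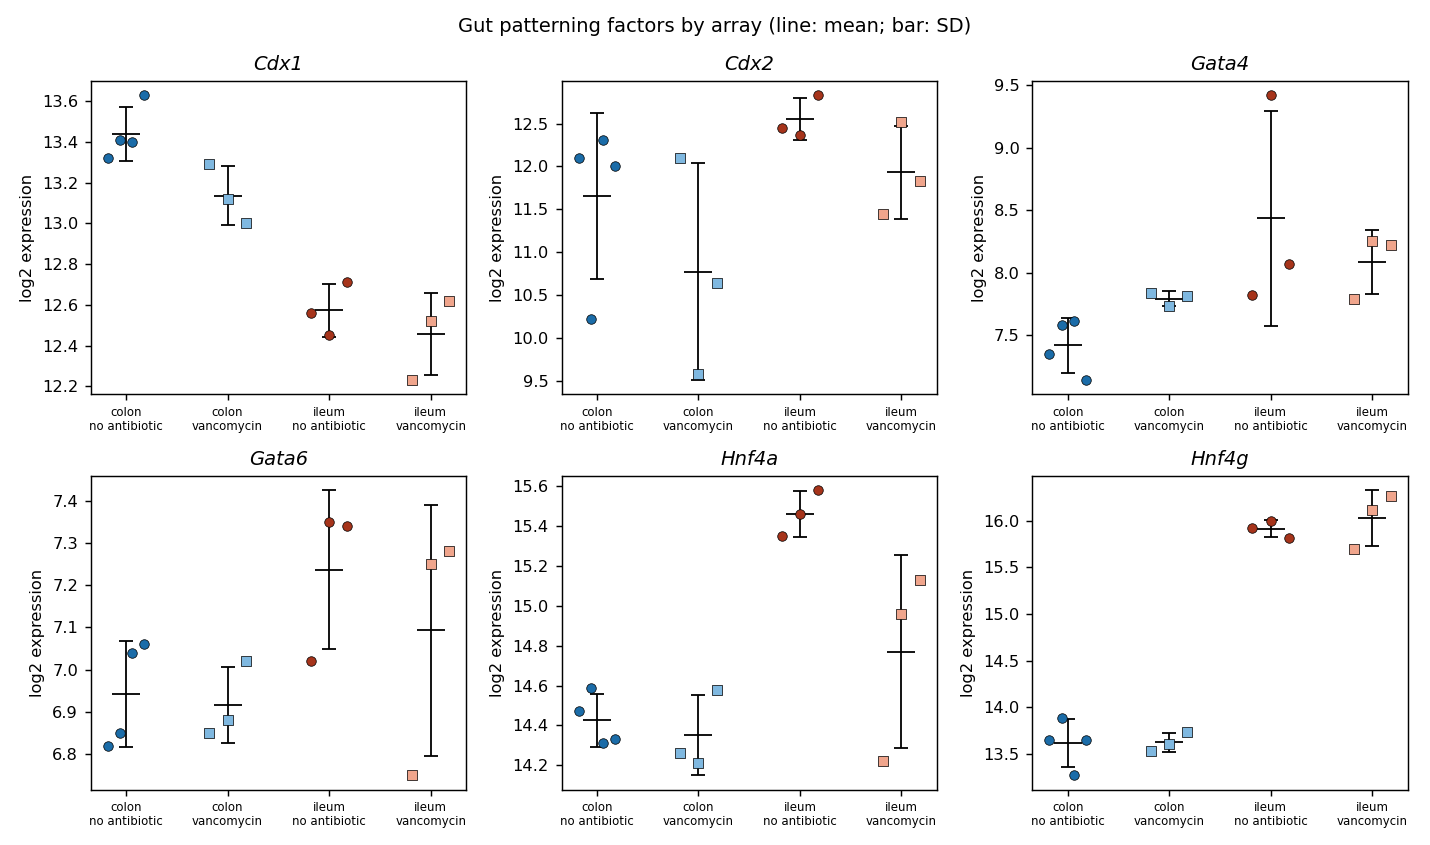
Log2 expression of Cdx1, Cdx2, Gata4, Gata6, Hnf4a and Hnf4g in every array, by tissue and treatment; lines are group means, bars SD, and each panel has its own axis. Hnf4g was higher in every ileum, Cdx1 in every colon, and Hnf4a of ileum array 11 (14.22) lay among the colons.

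The same comparison under vancomycin used other arrays. There 18 of 39 members passed, 11 higher and 7 lower in colon, where 15.1% of all probe sets passed (7.45% higher and 7.67% lower). The groups did not overlap for 22 members, against 27.4% of all probe sets. In both treatments 17 members passed, all in the same direction, which was 81.0% of the calls without antibiotic and 94.4% of those with vancomycin. For all probe sets these shares were 54.5% and 73.9%. Across the 39 members the differences of the 2 treatments had a Pearson r of 0.979, a description over genes that share arrays. Without colon arrays 2 and 13, 20 members passed without antibiotic and 17 with vancomycin, and without ileum array 11 as well the latter were 18. Leaving out any 1 array, 17 to 21 members passed without antibiotic and 14 to 18 with vancomycin.

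Other genes that act with, near or beside the Hox genes were taken from lists, to be read against the 20.5% and 15.1% of all probe sets that passed without and with antibiotic. Of 10 measured cofactors, which help Hox proteins to bind DNA, 3 were higher in untreated colon, Pbx3 (1.20 ± 0.31), Tgif1 (1.11 ± 0.30) and Pknox2 (0.59 ± 0.19), and 0 passed under vancomycin (medians of the list 0.39 and 0.06, where all probe sets had 0.04 and 0.04). Among 14 other genes within or beside the clusters, 3 were higher and 1 lower without antibiotic. Beside Hoxa11os these were Skap2 (0.89 ± 0.13) and Hibadh (0.60 ± 0.17), which flank Hox A, and Hoxd3os1 (-0.78 ± 0.23), an antisense transcript of the Hox D cluster, and with vancomycin Hoxa11os, Skap2 and Hoxd3os1 passed again (medians 0.18 and 0.12). Of 20 mesenchymal transcription factors 2 were higher and 2 lower, and 2 and 3 under vancomycin (medians 0.10 and 0.07). Osr2, an odd-skipped zinc finger factor, was far lower in colon (-7.84 ± 0.24), as was Tbx3, a T-box factor (-3.36 ± 0.32), while Zfhx3 (1.83 ± 0.29) and Tcf21 (1.82 ± 0.40) were higher. Among 24 other regional factors of the epithelium, 4 were higher and 5 lower, and 4 and 6 under vancomycin (medians 0.02 and 0.03). The smallest p-values belonged to Maf (-4.16 ± 0.26), Gata5, a relative of Gata4 (-5.51 ± 0.39), Foxa2, a forkhead factor of endoderm (3.49 ± 0.27), and Nr1h4, the bile acid receptor FXR (-2.13 ± 0.20).

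The next comparison asked whether vancomycin changed these genes in the ileum. In limma 0 of 39 members passed, where 0.536% of all probe sets passed. At an unadjusted p of 0.05 there were 6 of 39, against 10.1% of all probe sets, and 7 did not overlap between the groups, against 16.9%. The median difference was 0.12 among the members and 0.02 among all probe sets. The member with the smallest p was Hnf4a, at 15.35, 15.46 and 15.58 untreated and 14.22, 14.96 and 15.13 with vancomycin, a difference of -0.69 ± 0.21 (adjusted p = 0.221). It was -0.42 without ileum array 11. Hoxc8 had the largest difference, 0.94 ± 0.41 (adjusted p = 0.463). It was 0.31 without array 11, and that of Hoxc6 went from 0.62 to 0.07.

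The 7 members whose ilea did not overlap were Hoxa6, Hoxa10, Hoxb2, Hoxd8 and Hoxd13, higher with vancomycin, and Hoxc13 and Hnf4a, lower. That count is near the 16.9% of all probe sets, and some gaps were narrow (5.96 untreated against 5.98 with vancomycin for Hoxa6). Hoxb2, a hindbrain gene, stood at 7.86, 7.96 and 7.69 untreated and 8.74, 8.52 and 8.04 with vancomycin (0.60 ± 0.20). Hoxd8 stood at 5.62, 6 and 5.82 and 6.53, 6.40 and 6.04 (0.51 ± 0.17). Neither passed (adjusted p = 0.317 and 0.315). With array weights, which gave uneven arrays less influence, 4 of 39 members passed, where 1012 of all 19572 probe sets passed. They were Hoxb2 (0.62) and Hoxd8 (0.53), higher, and Hoxc13 (-0.50) and Hnf4a (-0.53), lower. Missing the threshold does not show that values were equal. For Hoxb13 the 95% interval of the ileum difference was -0.73 to 1.01, for Hnf4g -0.27 to 0.50 and for Cdx2 -1.86 to 0.63. Of the lists beside the members, 1 gene passed in the ileum, Elf3, an epithelial factor (-1.08 ± 0.21).

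In the colon 0 of 39 members passed with vancomycin, where 0.0102% of all probe sets passed. At an unadjusted p of 0.05 there were 4 of 39, against 15.9% of all probe sets, and 4 did not overlap, against 12.3%. Hoxd8 stood at 5.43, 5.64, 5.50 and 5.38 untreated and 5.96, 6.28 and 5.79 with vancomycin, a difference of 0.52 ± 0.16 (adjusted p = 0.175). Every vancomycin colon was above every untreated colon. Hoxa10 had a difference of -0.67 ± 0.21 (adjusted p = 0.178), with overlap between vancomycin array 11 and the untreated colons. Hoxa3 differed by 0.61 ± 0.23 and Cdx1 by -0.30 ± 0.14, both without overlap. Hoxd10 and Cdx2 had wide intervals, -0.68 to 2.25 for Hoxd10 and -2.05 to 0.28 for Cdx2; array 2 is untreated and array 13 treated. For Hoxb13 the interval was -0.63 to 1.01.

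**Figure D5:**
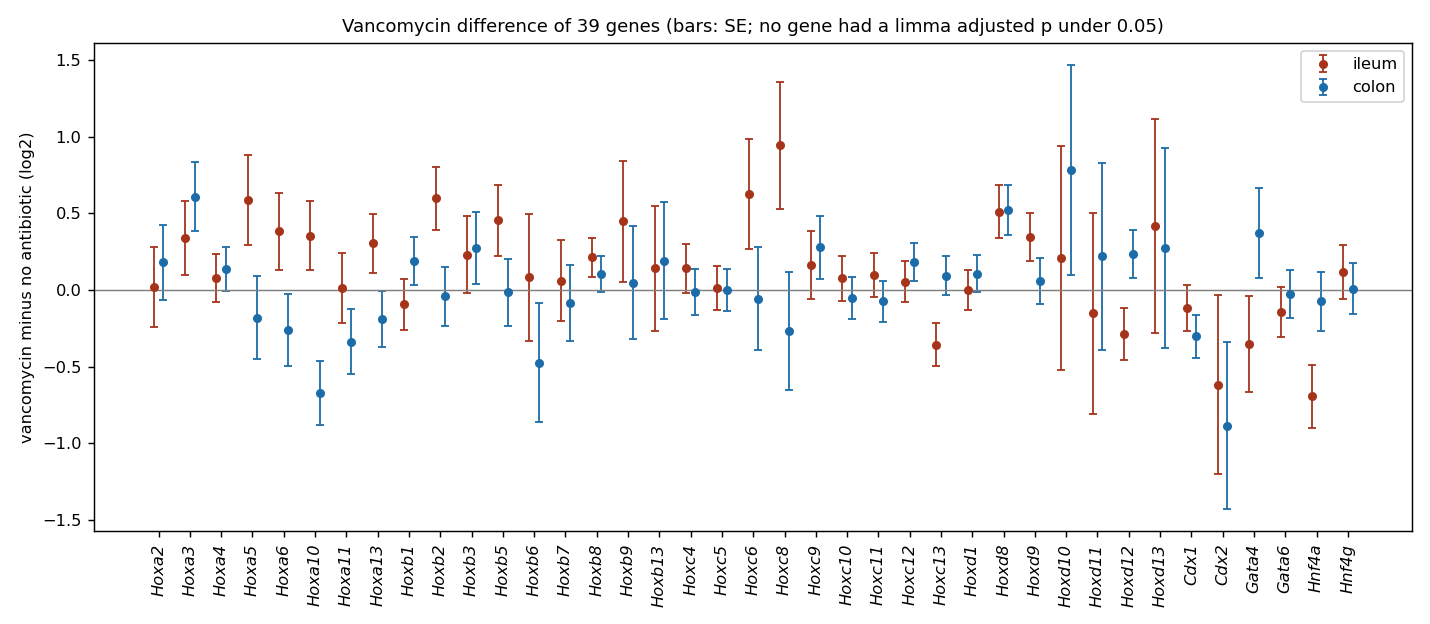
Vancomycin minus untreated difference (log2) of the 39 members in ileum (red) and colon (blue), ordered by cluster and paralog number; bars are SE from limma. Means ran from -0.88 to 0.94, and no member had an adjusted p under 0.05.

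The last comparison tested whether the vancomycin difference was unequal in colon and ileum. Here 0 of 39 members passed in limma, where 0.189% of all probe sets passed. At an unadjusted p of 0.05 there were 5 of 39, against 8.01% of all probe sets. Hoxa10 had the smallest p, with a colon minus ileum value of -1.02 ± 0.31 (adjusted p = 0.328; 95% interval -1.68 to -0.37). The others were Hoxb2 (-0.64), Hoxc13 (0.45), Hoxd12 (0.52) and Hnf4a (0.62). Hoxd8, with a positive difference in both tissues, had a value of 0.01 ± 0.24.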

How the data were processed

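Biotin-labelled RNA of colon and ileum was measured on Affymetrix arrays, per the labels' protocols. The authors deposited 1 log2 value per probe set and array. The submitters' processing notes name RMA and Expression Console 1.4.1.46. RMA corrects background, quantile-normalizes and summarizes probes. Values ran from 3.01 to 18.25, with array medians of 7.98 to 8.14. Quantile normalization hides shifts common to most genes, and the number of arrays limits precision. GEO's platform annotation gave 19572 probe sets 1 symbol each, and all matched a GRCm38.p6 RefSeq table by Entrez identifier.

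A group-means model of all 13 arrays was fitted by lmFit and eBayes of limma 3.58.1 in R 4.3.3. The Benjamini-Hochberg adjustment ran over 19572 probe sets, with a threshold of 0.05 and no filter. Errors are SE from that fit; intervals are at 95%. The fit was tested on simulated data with 200 changed genes. Members and lists were chosen with earlier results of these data known. Every member with a probe set is reported, with values by array where it passed in any comparison; in other lists at most the 4 smallest p-values are named. Array numbers are those of the titles. Vancomycin colon and ileum arrays of the same number deviated together weakly (correlations 0.236, 0.176 and 0.107), and each colon matched its own number best. This does not show that they came from the same mouse, which the labels do not say. The main fit treated arrays as unpaired. Alternatives are given in the closing section.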

Additional observations from a re-analysis of the deposited data

Results flagged for a closer look

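Both results concern untreated colon array 2. Its Hoxd11 value of 9.63 lay far above the other untreated colons, of which the next was 7.03, a gap of 0.956 of the group's range. Its Cdx2 value of 10.22 lay below the next value of 12, a gap of 0.852. Both exceed Dixon's critical share for 4 samples at 95%. Chance passes it in about 1 of 20 groups, so about 1.95 of the 39 genes tested, and 2 were found. The vancomycin colons, a group of 3, were not tested.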

How the results depend on the processing

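No called member changed direction in any alternative. Of the 21 members called between the tissues without antibiotic, 16 passed in every alternative that kept them. Of the 18 called under vancomycin, 13 did. Among these, Hoxc6 and Hoxd10 (both treatments) and Hoxd12 (vancomycin) were absent from the alternative without the dimmest probe sets. Hoxd13 (untreated) and Hoxa4, Hoxb2, Hoxc13, Hoxd13, Cdx2 and Hnf4a (vancomycin) passed in 1 to 3 alternatives. In the vancomycin comparisons 15 of 39 members changed sign in some alternative in ileum, 18 in colon and 16 in the difference between tissues, all uncalled.

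Counts over all probe sets moved more. Fits of only the groups compared called 1875 between tissues under vancomycin (2961 in the common fit), 20 in ileum (105) and 0 in colon (2). Array weights called 4903, 1012 and 38, 191 for the difference between tissues (37), and 4 members in ileum (0). In colon, leaving out the dimmest 33.3% of probe sets called 1 and centring arrays on their medians 0; this centring moved the split without antibiotic from 2144 higher and 1876 lower to 1901 and 1949. Leaving out 1 array gave 0 to 217 probe sets in colon (0 without untreated 2, 217 without untreated 3, 5 without untreated 5, 109 without vancomycin 11, 1 without vancomycin 14). It gave 40 to 172 in ileum (56 without untreated 1, 40 without untreated 3, 172 without vancomycin 11, 56 without vancomycin 13). For the difference it gave 12 to 84, with 84 without ileum 11 and 12 to 23 without colon 1, 2, 5, 13 or 14 or ileum 1 or 3. Without colon arrays 2 and 13, chosen after seeing the data, colon had 0 and the difference 1; without ileum array 11 as well, colon had 6. Dropping the dimmest probe sets left 22 of the 39 members, 16 of them Hox genes, of which 16 and 13 passed between the tissues. For untreated colon and ileum arrays of one number, deviations correlated by -0.0162 to 0.0754 and 1 of 3 colons matched its own number best. With the number as a replicate block, 3669 and 2923 probe sets and 19 and 18 members passed between the tissues, and 23 probe sets for the difference. No member's call under vancomycin changed with the block.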

Other observations

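Genes of signals that set position in the gut wall were called about as often as all probe sets. Of 20 Wnt, hedgehog, BMP, FGF and retinoic acid genes 4 were higher and 0 lower in untreated colon in limma, where 20.5% of all probe sets passed (median of the list 0.31, of all probe sets 0.04). They were Fgf10, a mesenchymal growth factor (1.80 ± 0.33), the BMP ligands Bmp4 (1.33 ± 0.28) and Bmp5 (1.82 ± 0.45), and Ptch1, the hedgehog receptor (1.14 ± 0.36). The fibroblast and smooth muscle lists were higher in the same arrays, and their part was not tested. Under vancomycin 1 was higher, Fgf10 (1.16 ± 0.35), and 1 lower, Bmp7 (-0.80 ± 0.18), where 15.1% of all probe sets passed, with a median of 0.04. Of 13 Polycomb and trithorax regulators of Hox genes, Pcgf2 (0.95 ± 0.20) and Ezh1 (0.37 ± 0.13) were higher in untreated colon and 0 passed under vancomycin (medians 0.01 and -0.14), counts that are not above the shares of all probe sets.

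Isx, an intestinal homeobox gene singled out after its values were seen, was low in the same colon arrays as Cdx2. It stood at 12.21, 9.04, 11.53 and 11.63 in the untreated colons and 11.38, 7.31 and 9.66 in the vancomycin colons, lowest in arrays 13, 2 and 14. In the ilea it ranged from 12.89 to 14.06.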
